A study of Mus musculus with 12 samples.

Results

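The genes of lipid droplet formation and triglyceride turnover were followed in NE-4C cells, a neural progenitor line derived from mouse embryonic brain. Wild-type (WT) cells were set beside a Faf2 knockout (KO) line. The 40 genes were taken by name from a fixed list of perilipins, lipases and their regulators, acyltransferases, phosphatases, acyl-CoA synthetases and droplet assembly proteins, drawn up with earlier results of these data known. The count table of 57010 genes held 39 of them, and 33 passed the filter on low counts and were tested among 16502 genes. The non-coding Faf2os, the remaining gene of the list, was not analysed here.

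Bulk mRNA-Seq was available for 12 libraries, 3 in each of 4 groups. Cells of either genotype came from 3 independent passages, and how the passages fall on the libraries is not stated. WT NO and KO NO were wild-type and Faf2 KO cells collected uninduced. WT RA and KO RA had been exposed to 1 µM all-trans retinoic acid (RA), which induces neuronal differentiation in this line, for 24 h, and were collected on day 3 of induction after a return to basal medium. No uninduced group is described as collected on day 3. The RA response below is the difference between the RA and uninduced groups, in which RA and days in culture cannot be told apart. The KO line was made with CRISPR-Cas9 by removing exon 4 of Faf2, passed through puromycin selection and came from picked colonies, so that a genotype difference compares 1 edited line with WT cells, for which no such selection is stated. The p-values below measure the spread between these libraries.

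A lipid droplet is a core of triglyceride and sterol ester under a phospholipid monolayer that buds from the endoplasmic reticulum (ER). Triglyceride is built stepwise at the ER: fatty acids are activated to acyl-CoA, joined to glycerol-3-phosphate by acyltransferases, dephosphorylated by lipins and finished by the diacylglycerol acyltransferases, and it is broken down on the droplet by a lipase cascade that starts with PNPLA2 (also called ATGL). FAF2, also known as UBXD8, is an ER protein that moves to droplets, recruits the ATPase p97 and is known there as a negative regulator of PNPLA2. Neural progenitors make fatty acids for new membranes and carry few droplets compared with fat or liver cells.

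Library totals ran from 17370049 to 30738694 counts, and levels below are CPM, counts scaled to the library size with TMM factors. The deposited counts are corrected for gene length, so CPM can be compared between genes per unit of length. Faf2 itself, the targeted gene, was at 50.0, 38.8 and 36.0 CPM in WT NO, 35.1, 37.9 and 49.1 in WT RA, 21.0, 21.7 and 25.4 in KO NO and 36.1, 34.3 and 18.7 in KO RA. A whole-gene count does not read the deletion of 1 exon. The authors report loss of FAF2 protein in the KO line by immunofluorescence and western blot. KO NO lay below WT NO (log2 fold change −0.87, edgeR adjusted p = 0.179, and −0.86 with adjusted p = 0.0111 without KO RA replicate 3), while KO RA overlapped WT RA.

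Among the libraries, 2 stood apart from their groups. KO RA replicate 3 had a TMM factor of 0.394 (0.872 to 1.28 in the other 11) and 23.5% of its counts on mitochondrial genes (9.10% to 17.7%). Levels are divided by this factor, so the low value raises the CPM of every gene in that library. Counts there were also concentrated, with 62.5% on the top 100 genes (37.1% to 50.4% elsewhere). Ribosomal protein genes took 26.0% (15.9% to 24.8% elsewhere). Before scaling, members of the list went both ways in KO RA replicate 3. Plin2 and Hilpda had their highest counts of the 12 libraries there (2077 and 285). Gpam, Dgat2, Lpin1 and Lipe had their lowest (36, 22, 7 and 6). WT NO replicate 3 differed from its group mates beyond sampling noise in 70.3% and 70.8% of genes, against 44.3% between replicates 1 and 2. Several results that rest on either library are given with and without it. Neural progenitor markers summed to 426 to 1017 CPM in the 12 libraries and all 10 were above the floor of 3 counts in every library. The 9 adipocyte markers summed to 21.4 to 44.9 CPM, most of it from the lipoprotein lipase gene Lpl (7.53 to 39.1 CPM) and from Fabp4 (0.352 to 17.4 CPM). Lep and Cfd were at 0 in every library, Plin1 never exceeded 1 count, Adipoq and Retn 4, Cidec 5 and Pparg 22. The 6 microglia and macrophage markers summed to 1.98 to 5.35 CPM, and the 9 primitive endoderm and hepatic markers to 2.93 to 9.12 CPM. Summed mesenchymal markers (9 genes, all tested) were at 71.4 to 147 CPM in WT RA, 131 to 675 CPM in KO RA, highest in replicate 3, and at most 39.8 CPM in the untreated groups. Endothelial markers (6 genes) summed to 6.44 to 14.6 CPM in KO RA and at most 2.81 CPM elsewhere. Neuron markers (10 genes) summed to 188 to 279 CPM in KO RA, 162 to 187 CPM in WT RA, 106 to 112 CPM in KO NO and 91.7 to 160 CPM in WT NO. Pluripotent and germline markers (6 genes) summed to 1025 to 1243 CPM in KO RA and 2184 to 2867 CPM in WT RA, and to 1423 to 1697 CPM in KO NO and 1207 to 2322 CPM in WT NO. In bulk RNA, more cells of a type and more RNA per cell cannot be told apart, and the part of these cells in the results below was not tested.

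The members were quantified in untreated WT cells first. Acsl3, an acyl-CoA synthetase of the ER and of nascent droplets, was the most abundant, at 79.3, 81.7 and 80.0 CPM in WT NO, and made up 15.3% of the summed level of the 39 genes. The next were Agpat1 and Agpat3, which add the second fatty acid to the glycerol backbone, at 71.8 ± 18.9 and 61.3 ± 19.1 CPM (SD, n = 3). The WT NO libraries of Acsl3, Agpat1 and Agpat3 overlapped, so their order is not fixed. All 3 lay above Ldah, a droplet-associated hydrolase at 33.0 ± 6.05 CPM, without overlap between Agpat3 and Ldah. Ldah, Gpat4 and Plin3 each overlapped the next in order, down to Lpcat1. Between Lpcat1, at 23.0 ± 1.18 CPM, and Pnpla2, at 19.6 ± 0.421 CPM, the libraries did not overlap. The coat proteins Plin3 and Plin2 (26.9 ± 6.70 and 19.5 ± 4.74 CPM) exceeded Plin5 (1.15 ± 0.913 CPM), the coat protein of oxidative tissues. Several genes at the bottom of the order are known mostly from fat, liver or muscle. Plin4, Cideb and Hsd17b13 had at most 3 counts in every library, and Hsd17b13 had 0 in all 12, which at 3 counts allows up to 0.0838 to 0.297 CPM depending on the library. Cidec had at most 5 counts, Mgll at most 22 and Pnpla3 at most 29. These 6 genes were not tested. Apart from them, each gene passed the filter on low counts.

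**Figure D1:**
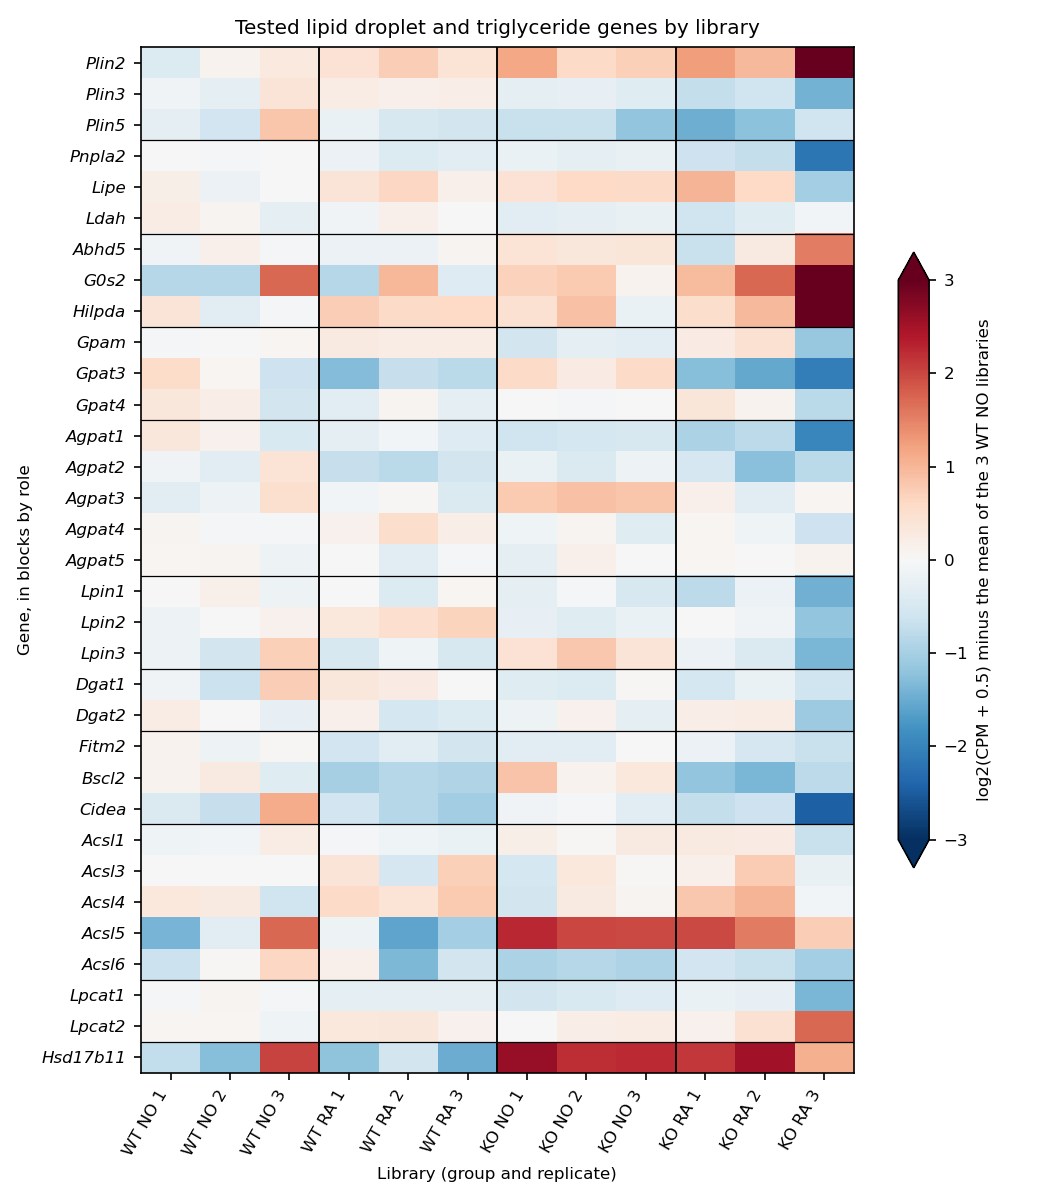
Level of the 33 tested genes in the 12 libraries. Colour is log2(CPM + 0.5) minus the mean of the 3 WT NO libraries, rows are genes in blocks by role and columns are libraries; Acsl5 and Hsd17b11 are high in WT NO replicate 3 and in every KO library, and Plin2, Hilpda and G0s2 stand out in KO RA replicate 3.

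Summed by role, the assembly and fusion genes (Bscl2, Fitm2, Cidea, Cideb and Cidec) were set apart by treatment. They summed to 25.6 ± 1.17 CPM in WT NO and 29.4 ± 6.17 CPM in KO NO, against 13.1 ± 0.584 CPM in WT RA and 11.7 ± 0.709 CPM in KO RA (SD, n = 3). All 6 RA libraries lay below all 6 untreated libraries, and Bscl2 made up most of the sum. The 5 acylglycerol-3-phosphate acyltransferases summed to 177 ± 5.34 CPM in WT NO and 194 ± 6.95 CPM in KO NO, and to 152 ± 14.2 and 126 ± 15.0 CPM in the RA groups of WT and KO. Their 6 RA libraries, at most 165 CPM, likewise lay below the 6 untreated ones, at least 171 CPM. Lipolysis enzymes summed to 54.8 ± 5.78 CPM in untreated and 51.9 ± 2.83 CPM in RA-treated WT cells, and to 46.5 ± 0.992 and 37.9 ± 2.19 CPM in the KO groups. Ldah made up most of the lipolysis sums, with means of 33.0, 33.1, 27.0 and 25.9 CPM in the same order. These sums are descriptions and carry no test. The regulators of PNPLA2 summed to 14.5 ± 1.54 CPM in KO NO and to 30.6 ± 30.2 CPM in KO RA, where replicate 3 alone was at 65.1 CPM. Without TMM factors these 2 means were 16.7 and 19.5 CPM. The perilipin mean in KO RA was 111 CPM with the factors and 77.0 CPM without them.

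**Figure D2:**
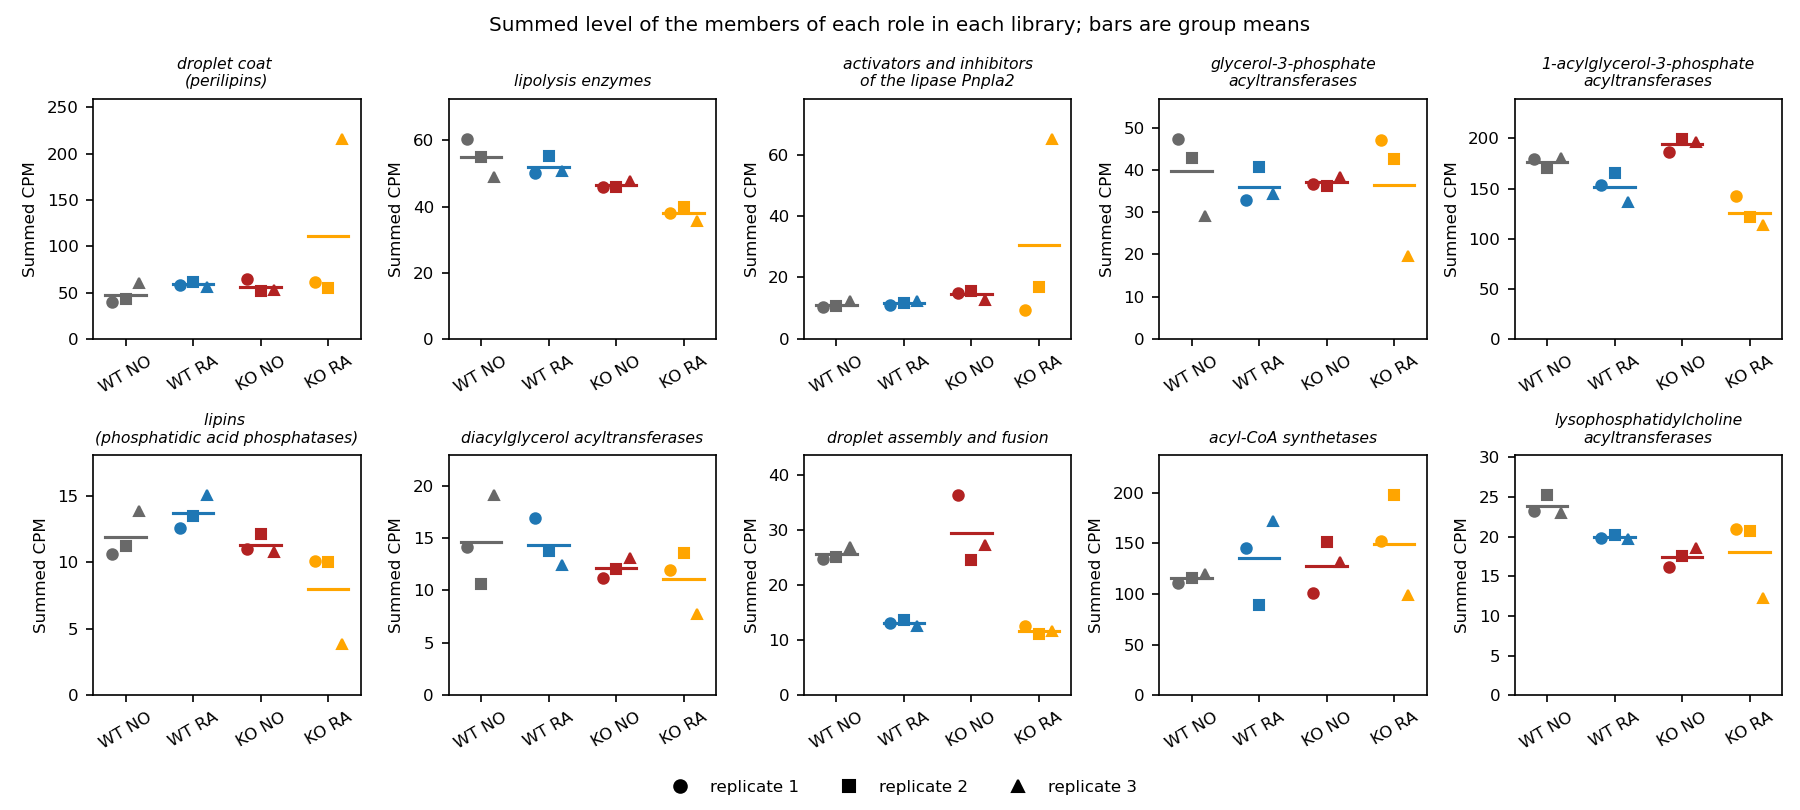
Summed CPM of the members of 10 roles in each library, by group, with bars at the group means. Assembly and fusion genes sit at 11.1 to 13.7 CPM in the 6 RA libraries and at 24.6 to 36.3 CPM in the 6 untreated ones; the perilipin and PNPLA2 regulator panels show KO RA replicate 3 far above the rest.

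Few members changed by the test across all genes. With edgeR's quasi-likelihood test on all 12 libraries and Benjamini-Hochberg adjustment, 2 of the 33 tested genes fell in KO RA versus KO NO, Bscl2 and Gpat3, and none rose. That is 6.06% of the members, where 1.59% of all tested genes were called lower and 3.89% higher. In KO NO versus WT NO no member was called, where 0.788% of all genes were called higher and 0.351% lower. In KO RA versus WT RA the count was also 0 (background 0.885% higher and 0.358% lower), as in WT RA versus WT NO (0.321% and 0.0848%) and for the KO minus WT contrast of the RA response (0.0% in either direction). The medians over the 33 members were −0.09 (KO NO versus WT NO), −0.15 (KO RA versus WT RA), −0.19 (WT RA versus WT NO), −0.11 (KO RA versus KO NO) and 0.14 (difference) on the log2 scale. Over all tested genes they were −0.02, 0.09, −0.01, 0.11 and 0.12.

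At an unadjusted p under 0.05, 1 member was higher (Agpat3) and 1 lower (Acsl6) in KO NO versus WT NO, where 5.81% of all tested genes were higher and 6.37% lower. Between the genotypes after RA, 4 were higher (Plin2, Hilpda, Acsl5 and Hsd17b11) and 6 lower (Plin3, Pnpla2, Gpat3, Agpat1, Agpat4 and Lpin2), beside 10.9% and 6.67% of all genes. In WT RA versus WT NO none was higher and 4 were lower (Gpat3, Agpat2, Bscl2 and Hsd17b11), beside 6.76% and 5.79%. The RA response in KO cells had 2 higher (Plin2 and Hilpda) and 7 lower (Plin3, Pnpla2, Gpat3, Agpat2, Agpat3, Lpin3 and Bscl2), beside 15.8% and 9.42%. For the difference of the RA response, Gpat3 alone was below that threshold, on the lower side, where 5.53% of all genes were higher and 3.09% lower.

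DESeq2 on the same libraries called Agpat3 higher in KO NO versus WT NO and no member lower (background 3.31% and 3.19%). After RA it called Acsl5, Hsd17b11 and Plin2 higher and Agpat1, Lpin2 and Plin3 lower (5.3% and 3.12%). For WT RA versus WT NO it called Bscl2 lower (3.27% of all genes were higher and 2.64% lower). For KO RA versus KO NO it called Hilpda and Plin2 higher and Agpat3, Bscl2, Gpat3 and Lpin3 lower (10.5% and 6.35%), and for the difference of the RA response none (1.37% and 0.608%). Limma-voom with library quality weights called 6 members higher and 3 lower in KO NO versus WT NO (10.9% and 10.8%), 3 and 5 in KO RA versus WT RA (9.79% and 8.31%), 3 and 4 in WT RA versus WT NO (10.8% in either direction), 2 and 6 in KO RA versus KO NO (15.1% and 12.3%) and 0 and 2 for the difference (3.56% and 2.41%).

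Without KO RA replicate 3, the edgeR test called more genes. In KO NO versus WT NO it then called Plin2 and Agpat3 higher and Lpcat1 lower, where 4.43% of all genes were called higher and 4.35% lower. In KO RA versus WT RA it called Hsd17b11 higher and Plin3 lower (4.42% and 5.44%), and in WT RA versus WT NO Bscl2 lower (5.65% of all genes higher and 5.13% lower). In KO RA versus KO NO it called Acsl4 and Gpam higher and Agpat3, Bscl2, Gpat3 and Pnpla2 lower (8.48% and 7.54%). For the difference of the RA response it called no member (0.802% and 0.537%). The names in this paragraph and the previous ones that lie outside the naming rule were chosen after their values were seen. Read against all genes, the 4 members called lower in KO RA versus KO NO were 12.1% of those tested, beside 7.54%. The 2 called higher in KO NO were 6.06%, beside 4.43%. In the other directions of the group comparisons the members' share was below that of all genes. It was 3.03% for lower in KO NO (4.35%) and 3.03% in either direction in KO RA versus WT RA (4.42% and 5.44%). In WT RA versus WT NO it was 0.0% for higher (5.65%) and 3.03% for lower (5.13%). For higher in KO RA versus KO NO it was 6.06% (8.48%). With limma-voom the shares ran from 0.0% to 18.2% of the members in a direction.

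Further fits were added after the data were seen. With KO RA replicate 3 and WT NO replicate 3 both left out, edgeR called 6 members higher and 3 lower in KO NO versus WT NO (18.2% and 9.09%), where it called 8.03% and 7.29% of all genes. For KO RA versus WT RA it called 2 and 6 members (6.06% and 18.2%, beside 9.33% and 9.5%). It called 2 and 3 in WT RA versus WT NO (6.06% and 9.09%, beside 8.92% and 9.34%) and 2 and 6 in KO RA versus KO NO (6.06% and 18.2%, beside 12.5% and 12.8%). For the difference it called 0 and 2, Agpat3 and Plin3 (0.0% and 6.06%, beside 3.06% and 3.11%). DESeq2 on only the libraries compared called 2 and 1 members in KO NO versus WT NO (6.6% and 6.65% of all genes), 2 and 1 in KO RA versus WT RA (3.25% and 1.49%), 0 and 2 in WT RA versus WT NO (6.83% and 6.02%) and 1 and 4 in KO RA versus KO NO (7.19% and 3.78%).

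**Figure D3:**
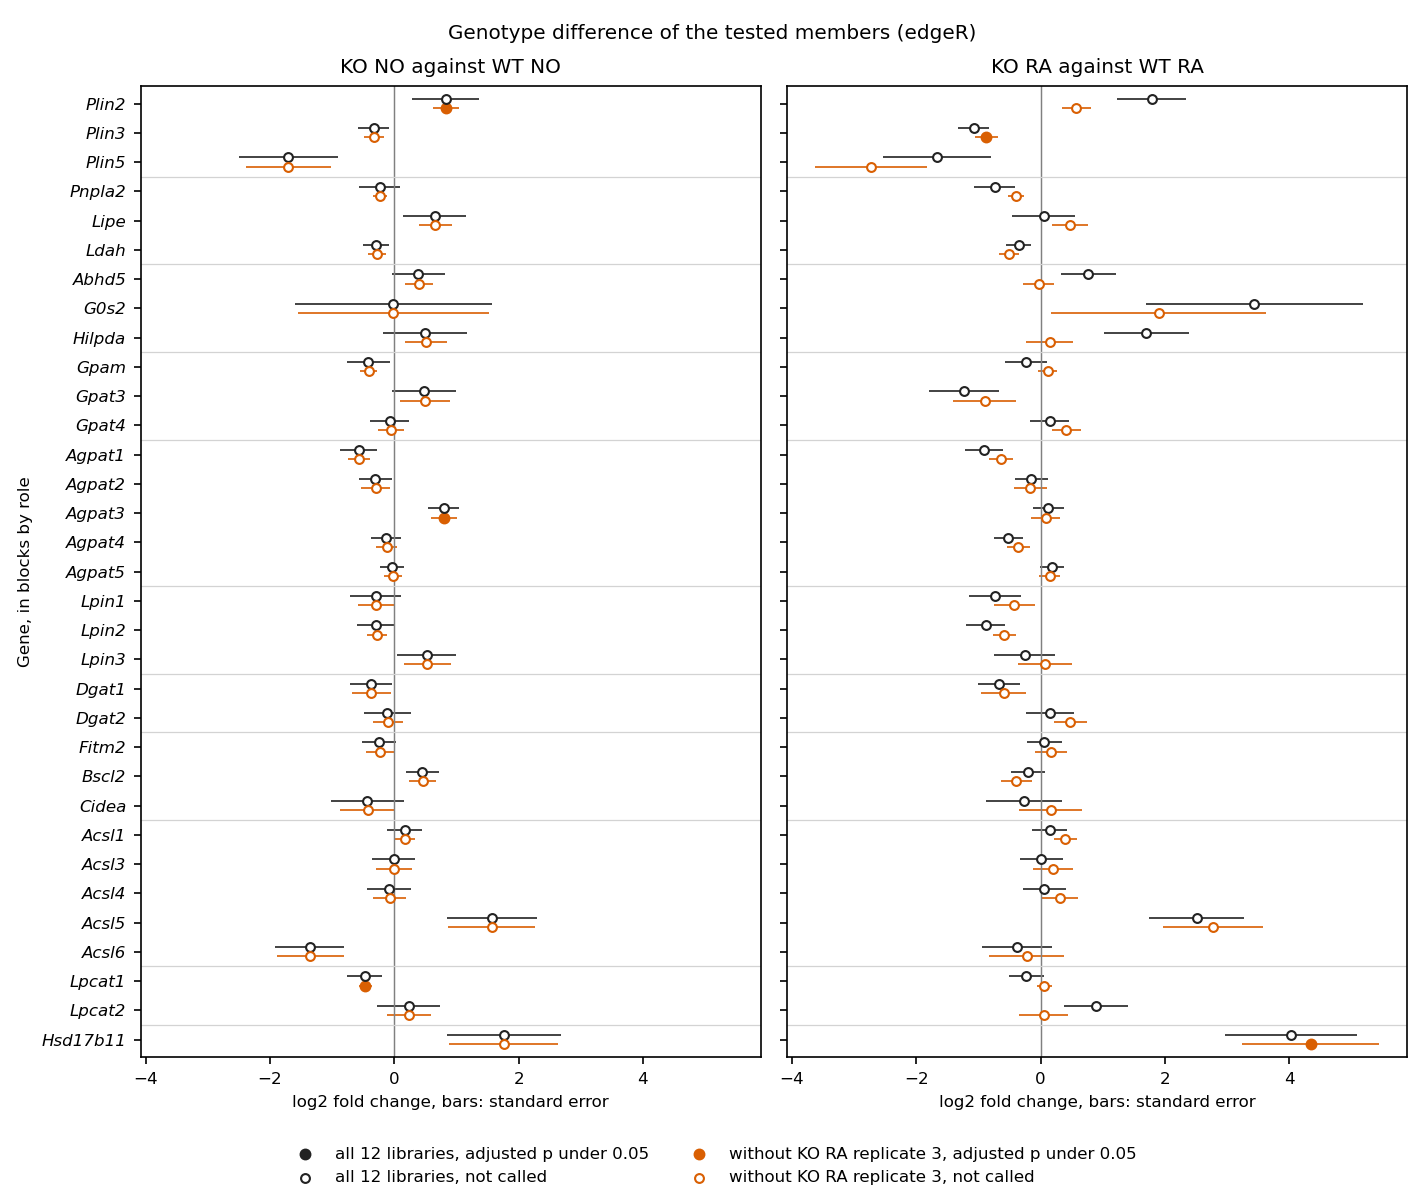
Log2 fold changes of the 33 tested genes between KO and WT cells, untreated (left) and after RA (right), with standard errors as bars. Black points are from all 12 libraries and orange points from the fit without KO RA replicate 3, and filled points have an adjusted p under 0.05. Hsd17b11 lies furthest to the right in either panel, at 1.76 untreated and 4.03 after RA with all libraries, and the Plin2 point after RA moves from 1.79 to 0.58 without that library.

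Perilipins coat the droplet and control access of lipases to it. Plin2 (chromosome 4, 86565912 to 86588459, reverse strand), the ubiquitous coat protein that is degraded when no droplet holds it, was at 14.2, 20.7 and 23.5 CPM in WT NO and 43.2, 28.8 and 31.6 CPM in KO NO. It was at 26.1, 32.0 and 25.6 CPM in WT RA and 46.0, 37.6 and 206 CPM in KO RA. Every KO library was thus above every WT library of the same treatment, and KO RA replicate 3 was 4.92 times the mean of its 2 group mates. The counts behind the KO RA values were 1020, 1103 and 2077, in libraries of 17370049, 23980398 and 25660471 counts. The log2 fold change of KO NO versus WT NO was 0.83 ± 0.54 (standard error, edgeR adjusted p = 0.628), and with KO RA replicate 3 left out it was 0.84 ± 0.21 (adjusted p = 0.0364). That library is in neither group of this comparison, and its removal changed mainly the standard error. Against WT RA, KO RA had a log2 fold change of 1.79 ± 0.55 (adjusted p = 0.144) with all libraries and 0.58 ± 0.23 (adjusted p = 0.145) without the third KO RA replicate, and DESeq2 on all libraries called it (adjusted p = 0.0187).

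The sequence upstream of Plin2 is shown because this coat gene was higher in every KO library than in the WT libraries of the same treatment and RA was the treatment. It was searched for the hexamer bound by retinoid and other nuclear receptors and for the core of the hypoxia response element, since Plin2 and Hilpda are both known targets of nuclear receptors or hypoxia. The window is chr4:86588460-86588709 in GRCm39, the 250 bases before the start of the annotated Plin2 transcript, read 5′ to 3′ on the reverse strand, which is the coding strand of the gene. Capitals mark AGGTCA on either strand and ACGTG on either strand.

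Plin2 promoter: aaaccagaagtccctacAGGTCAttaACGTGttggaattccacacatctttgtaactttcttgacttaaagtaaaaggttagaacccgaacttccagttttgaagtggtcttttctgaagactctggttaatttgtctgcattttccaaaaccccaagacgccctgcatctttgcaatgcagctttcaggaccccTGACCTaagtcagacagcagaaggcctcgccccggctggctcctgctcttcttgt

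AGGTCA begins 233 bases before the start and its reverse complement 55 bases before it, and ACGTG begins 224 bases before it. In windows of this kind, from GENCODE starts and the GRCm39 sequence, AGGTCA occurred for 7 of 39 members (17.9%) and in 13.1% of 21757 genes. ACGTG occurred for 6 members (15.4%) and in 17.0% of all. The Hilpda window held neither of these 2 motifs. The other motifs searched on both strands were the ATF4 element TGATGNAA (3 members, 7.69%, and 3.39% of all), the E-box CACGTG, which holds the hypoxia core (3 members, 7.69%, and 6.26%), the CCAAT box (13 members, 33.3%, and 36.5%), and the SREBP element TCACNCCAC and the ATF6 and XBP1 element TGACGTGG (0 members, and 1.12% and 0.561% of all). The PPAR element was found for 0 members and in 0.0368% of all. A match of letters is a description and does not show a site in use.

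Plin3 (chromosome 17, 56584218 to 56599873), a coat protein that cycles between cytosol and young droplets, went the other way. It was at 30.9, 29.3 and 30.2 CPM in WT RA and at 15.8, 17.2 and 9.61 CPM in KO RA. Every KO RA library was below every WT RA library, with a log2 fold change of −1.08 ± 0.25 (adjusted p = 0.0635 with all libraries). Without KO RA replicate 3 the value was −0.87 ± 0.18 (adjusted p = 0.0177), and DESeq2 on all libraries called it as well (−1.02, adjusted p = 0.000253). In untreated cells Plin3 was at 24.6, 21.7 and 34.5 CPM in WT and 21.3, 22.2 and 20.5 CPM in KO, which overlapped. Between the genotypes the RA response differed by −0.74 ± 0.35 on the log2 scale (adjusted p = 0.593). Plin5 had at most 72 counts in a library, and at 2.20 CPM its level in WT NO replicate 3 was 3.50 times the mean of the other 2 WT NO libraries.

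Droplet triglyceride is hydrolysed first by PNPLA2, then by hormone-sensitive lipase (Lipe) and monoglyceride lipase (Mgll). Pnpla2 (chromosome 7, 141034404 to 141040656) was at 19.8, 19.1 and 19.8 CPM in WT NO and at 17.2, 14.6 and 15.6 CPM in WT RA. In KO cells it was at 16.9, 16.1 and 16.8 CPM untreated and 12.5, 11.7 and 3.96 CPM after RA. Each of these groups lay below the WT NO libraries, and the KO RA libraries were the lowest. The log2 fold change of KO RA versus KO NO was −0.81 ± 0.33 (adjusted p = 0.164), and without KO RA replicate 3, whose level was 0.328 of the mean of its group mates, it was −0.47 ± 0.13 (adjusted p = 0.0290). Against WT NO, KO NO was at −0.24 ± 0.33 (adjusted p = 0.897). Lipe was at 1.44 to 2.01 CPM in WT NO and 2.49 to 2.81 CPM in KO NO without overlap (0.65 ± 0.51, adjusted p = 0.725). Ldah was within 21.5 to 38.3 CPM in all 12 libraries.

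PNPLA2 is switched on by the coactivator ABHD5 and held back by G0S2 and HILPDA. Abhd5 (chromosome 9, 122180621 to 122222936) was at 7.36, 8.98 and 7.69 CPM in WT NO and 10.8, 10.2 and 10.4 CPM in KO NO. The libraries of these groups did not overlap, and the log2 fold change of 0.39 ± 0.43 did not pass the test (adjusted p = 0.855). After RA it was at 7.02, 6.98 and 8.41 CPM in WT and 4.88, 9.74 and 24.0 CPM in KO, a spread within KO RA that covers the WT RA values. The KO RA counts were 108, 286 and 242, so the high CPM of replicate 3 comes with its low TMM factor.

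Hilpda (chromosome 6, 29272409 to 29276301), an inhibitor that is also a hypoxia-responsive gene, was at 2.99, 1.63 and 2.11 CPM in WT NO and 3.99, 3.49 and 3.58 CPM in WT RA. In KO cells it was at 3.19, 4.47 and 1.84 CPM untreated and 3.39, 4.80 and 28.2 CPM after RA. KO RA replicate 3 was 6.90 times the mean of its group mates, which overlapped KO NO. The KO RA counts of Hilpda were 75, 141 and 285. For KO RA versus KO NO the log2 fold change was 1.92 ± 0.69 with all libraries (adjusted p = 0.127) and 0.36 without that replicate (adjusted p = 0.561). G0s2 (chromosome 1, 192949563 to 192956177) had 0 counts in WT NO replicates 1 and 2 and in WT RA replicate 1. Its other levels were 2.50 CPM in WT NO, 1.31 and 0.191 CPM in WT RA, 0.967, 1.07 and 0.475 CPM in KO NO and 1.26, 2.49 and 12.9 CPM in KO RA. Again the KO RA value that stood apart was that of replicate 3. In no comparison did G0s2 pass the edgeR test on all libraries (smallest adjusted p = 0.325).

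**Figure D4:**
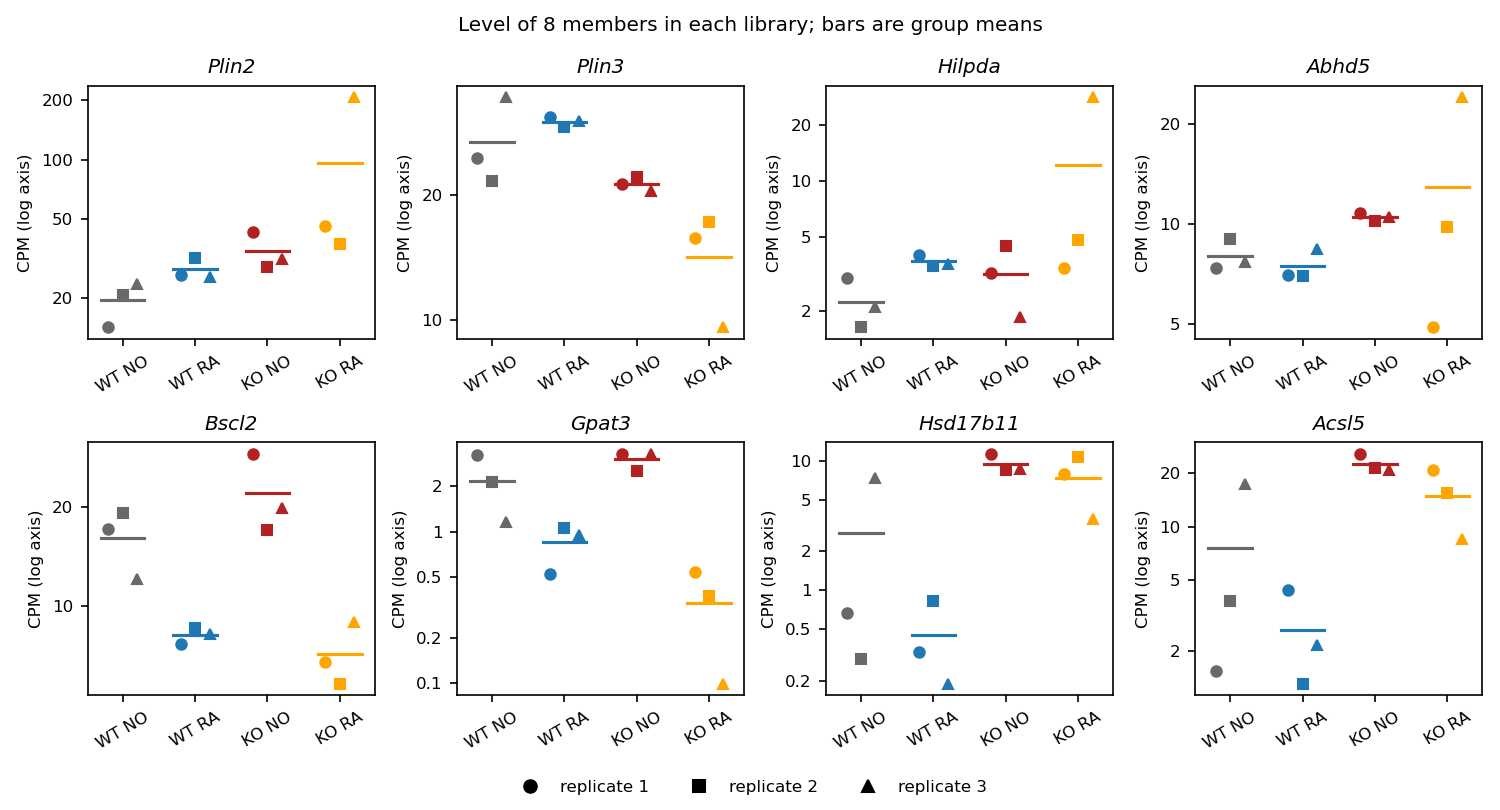
CPM of 8 members in each library on log axes, by group, with a symbol for each replicate and a bar at the group mean. In the Plin2, Hilpda and Abhd5 panels KO RA replicate 3 (206, 28.2 and 24.0 CPM) is the highest of the 12 libraries, and in the Hsd17b11 and Acsl5 panels WT NO replicate 3 (7.36 and 17.4 CPM) lies above the other WT libraries. CPM here is scaled with TMM factors, and Abhd5 had more counts in KO RA replicate 2 (286) than in replicate 3 (242).

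Fatty acids enter the pathway as acyl-CoA, made by the ACSL enzymes. Acsl3 (chromosome 1, 78635537 to 78685461) was at 104, 56.5 and 131 CPM in WT RA, 55.8, 101 and 82.9 CPM in KO NO and 89.9, 136 and 68.9 CPM in KO RA, against about 80 CPM in WT NO. All groups overlapped, and its log2 fold changes lay between −0.01 and 0.30. Acsl5 (chromosome 19, 55240267 to 55286153), a synthetase best known from intestine and liver, differed most. It was at 1.55, 3.81 and 17.4 CPM in WT NO and 4.37, 1.31 and 2.15 CPM in WT RA. In KO it was at 25.6, 21.3 and 20.8 CPM untreated and 20.8, 15.3 and 8.52 CPM after RA.

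Every KO library was above every WT library of the same treatment for Acsl5, but WT NO replicate 3 was 6.49 times the mean of the other 2 WT NO libraries. The log2 fold change of KO NO versus WT NO was 1.57 ± 0.73 (adjusted p = 0.417), and 3.08 ± 0.59 (adjusted p = 0.0420) without WT NO replicate 3. After RA it was 2.51 ± 0.76 with all libraries (adjusted p = 0.139) and 2.51 ± 0.50 (adjusted p = 0.0358) without WT NO replicate 3. That library is in neither RA group, and its removal changed mainly the standard error. Of 12 edgeR fits that each left out 1 library, 1 called Acsl5 in either comparison. The largest adjusted p was 0.727 untreated (without WT NO replicate 2) and 0.387 after RA (without WT RA replicate 3). Acsl5 overlaps Zdhhc6 on the chromosome, and whether reads were counted by strand was not given in the sources used here. Other members also overlap protein-coding genes, among them Acsl3 (Utp14b), Agpat1 (Egfl8), Agpat2 (Egfl7), Agpat3 (Gm56820), Dgat1 (Hsf1), G0s2 (Lamb3) and Ldah (Gdf7). Acsl6, a brain-enriched synthetase, was at 1.16, 2.18 and 3.51 CPM in WT NO and 0.850, 0.948 and 0.865 CPM in KO NO. These groups did not overlap, at −1.36 ± 0.55 (adjusted p = 0.339), and the log2 fold change was −0.90 without WT NO replicate 3. Acsl4 and Acsl1 overlapped between genotypes in either treatment.

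The first acyl chain is added by glycerol-3-phosphate acyltransferases, of which GPAM is mitochondrial and GPAT3 and GPAT4 belong to the ER and droplets. Gpat3 (chromosome 5, 100993579 to 101046968) was at 3.28, 2.52 and 3.27 CPM in KO NO and 0.542, 0.375 and 0.0991 CPM in KO RA, the last of which rests on 1 count. In WT it was at 3.20, 2.14 and 1.16 CPM untreated and 0.529, 1.07 and 0.955 CPM after RA. RA libraries were below untreated libraries in both genotypes. Gpat3 fell 8.32-fold in KO RA versus KO NO (log2 fold change −3.06 ± 0.57, adjusted p = 0.0131), and without KO RA replicate 3 the log2 fold change was −2.73 ± 0.52 (adjusted p = 0.00691). Leaving out KO NO replicate 1 or 3 took the adjusted p to 0.0556 or 0.0529.

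In WT cells the same comparison for Gpat3 gave −1.35 ± 0.53 (adjusted p = 0.322). The difference between the genotypes' RA responses was −1.71 ± 0.76 (adjusted p = 0.565), so a larger fall in KO was not shown. A non-coding gene that overlaps Gpat3, 4930458D05Rik, had at most 8 counts in any library. Gpat4 and Gpam, which were more abundant (29.2 ± 8.78 and 8.49 ± 0.269 CPM in WT NO), did not pass the test with all libraries. Without KO RA replicate 3, Gpam was higher in KO RA than in KO NO by 0.78 ± 0.15 on the log2 scale (adjusted p = 0.00720), from 5.60, 6.78 and 6.67 CPM to 10.2 and 11.8 CPM.

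Among the acyltransferases of the second chain, Agpat3 (chromosome 10, 78105003 to 78208987) had the smallest unadjusted p of the members between untreated genotypes. It was at 47.5, 53.2 and 83.1 CPM in WT NO and at least 103 CPM in each KO NO library (106 ± 3.06, SD, n = 3). KO NO lay wholly above WT NO by a log2 fold change of 0.79 ± 0.25 (adjusted p = 0.190), and the value was 0.80 ± 0.21 (adjusted p = 0.0438) without KO RA replicate 3. After RA it was at 56.5, 60.6 and 43.8 CPM in WT and 66.4, 47.6 and 61.5 CPM in KO, where the genotypes overlapped (0.13 ± 0.25, adjusted p = 0.834). KO RA libraries were all below KO NO libraries, at −0.86 ± 0.25 (adjusted p = 0.0711). The genotypes' RA responses differed by −0.67 ± 0.35 (adjusted p = 0.634), and by −1.01 ± 0.23 (adjusted p = 0.0380) with KO RA replicate 3 and WT NO replicate 3 both left out, a fit chosen after the data were seen. Agpat2 (chromosome 2, 26483061 to 26494637), the isoform lost in a form of human lipodystrophy, was at 13.3, 11.5 and 19.2 CPM in WT NO and 8.70, 7.90 and 9.70 CPM in WT RA. RA libraries lay below untreated ones there, at −0.74 ± 0.26 (adjusted p = 0.266), and the log2 fold change was −0.50 without WT NO replicate 3. Agpat1 was at 51.1 to 88.3 CPM in WT NO and 46.0 to 50.4 CPM in KO NO without overlap, and it was at 53.2 to 66.4 CPM in WT RA and 17.5 to 40.3 CPM in KO RA.

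Lipins turn phosphatidic acid into diacylglycerol. Lpin1, Lpin2 and Lpin3 did not pass the edgeR test in any of the 5 comparisons with all libraries. Lpin2, the most abundant, was at 8.32 to 10.6 CPM in WT RA and 6.64, 6.03 and 2.58 CPM in KO RA without overlap (−0.88 ± 0.31, adjusted p = 0.195). The last step is catalysed by DGAT1, which re-esterifies fatty acids at the ER, and DGAT2, which also works on growing droplets. Dgat1 (chromosome 15, 76385083 to 76396476) was at 7.99, 5.36 and 14.8 CPM in WT NO, 11.1, 10.3 and 8.65 CPM in WT RA, 6.56, 6.34 and 8.85 CPM in KO NO and 5.87, 7.43 and 5.55 CPM in KO RA. Its KO RA libraries were below the WT RA libraries, by a log2 fold change of −0.67 ± 0.34 (adjusted p = 0.329). Dgat2 (chromosome 7, 98802491 to 98831991) was at 6.16, 5.29 and 4.30 CPM in WT NO, 5.86, 3.44 and 3.82 CPM in WT RA, 4.66, 5.72 and 4.22 CPM in KO NO and 6.09, 6.17 and 2.18 CPM in KO RA. The 4 groups of Dgat2 overlapped.

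Of the genes that shape the droplet as it leaves the ER, Bscl2 changed. It encodes seipin, which sits at the contact of ER and droplet and is mutated in congenital lipodystrophy. Bscl2 (chromosome 19, 8814810 to 8826051, forward strand) was at 17.2, 19.1 and 12.1 CPM in WT NO and 7.64, 8.58 and 8.22 CPM in WT RA. In KO cells it was at 29.1, 17.0 and 19.9 CPM untreated and 6.73, 5.79 and 8.92 CPM after RA. All 6 RA libraries were below all 6 untreated libraries. Bscl2 fell 3.09-fold in KO RA versus KO NO (log2 fold change −1.63 ± 0.28, adjusted p = 0.00845). Without KO NO replicate 1, its highest library, the log2 fold change was −1.35 and the adjusted p was 0.0550.

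In WT the log2 fold change of Bscl2 with RA was −0.99 ± 0.27 (adjusted p = 0.159), and it passed the test without KO RA replicate 3 (−0.98 ± 0.22, adjusted p = 0.0223) and with DESeq2 (adjusted p = 0.0367). The RA responses of the genotypes differed by −0.64 ± 0.38 (adjusted p = 0.653). The gene overlaps Gng3, a G protein subunit gene on the opposite strand, and the readthrough transcript gene Gm50139. Gng3 moved with it, from 8.20, 3.70 and 5.92 CPM in KO NO to 1.08, 0.477 and 1.59 CPM in KO RA (−2.54 ± 0.59, adjusted p = 0.0323). Since counting by strand was not stated, reads of the pair may not be fully separated. Gm50139 was at −0.64 ± 0.47 in the same comparison (adjusted p = 0.414). Fitm2, which partitions triglyceride to the cytosolic side of the ER, was at 3.07 to 3.77 CPM in WT NO and 2.16 to 2.62 CPM in WT RA without overlap (−0.57 ± 0.28, adjusted p = 0.442). Cidea, a droplet fusion protein known from brown fat, was at 11.2 CPM in WT NO replicate 3 and at most 4.74 CPM in the other libraries.

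**Figure D5:**
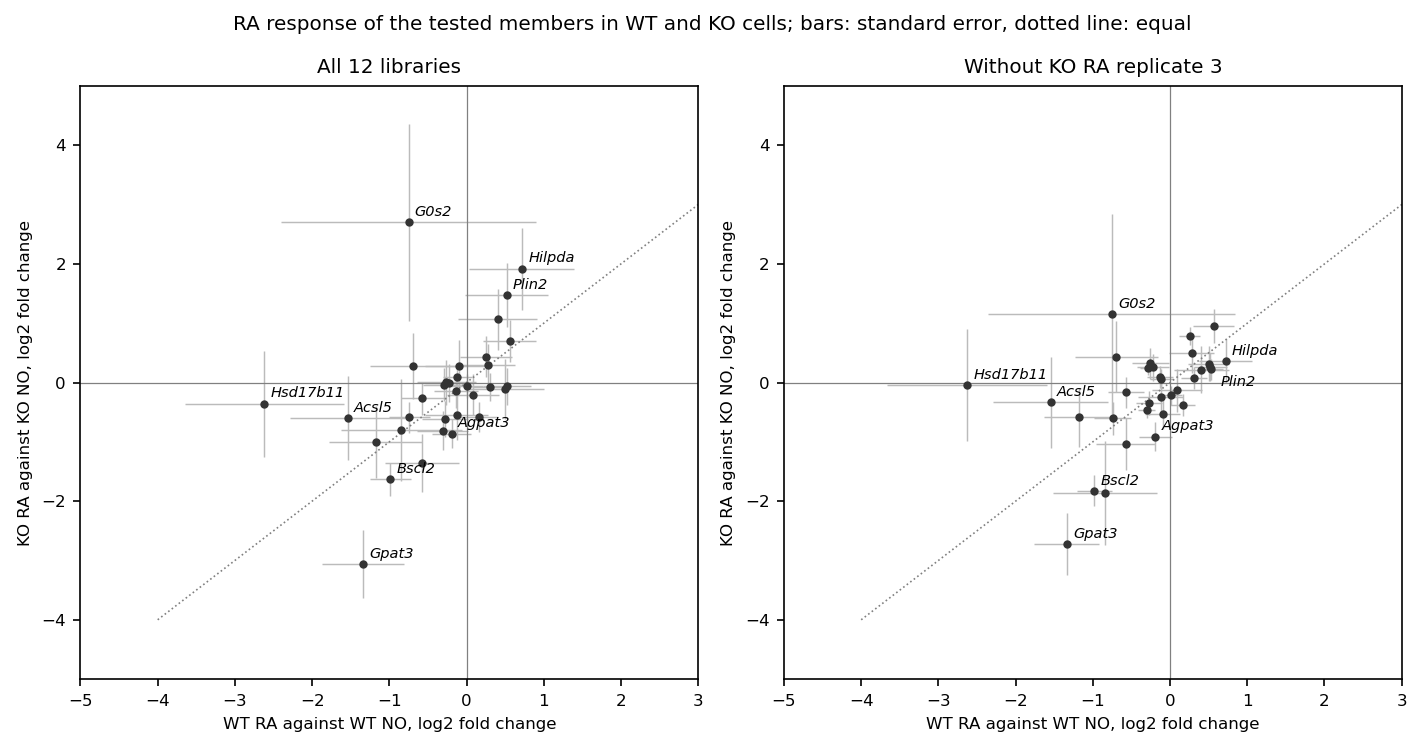
Log2 fold change with RA in KO cells (vertical) against that in WT cells (horizontal) for the 33 tested genes, with standard errors as bars, from all 12 libraries (left) and without KO RA replicate 3 (right). Bscl2 and Gpat3 lie low in both panels, while Plin2 and Hilpda move from 1.48 and 1.92 on the vertical axis to 0.26 and 0.36.

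HSD17B11 is a short-chain dehydrogenase that is targeted from the ER to droplets, and Hsd17b11 (chromosome 5, 104137628 to 104169902) had the largest fitted genotype difference of the members. It was at 0.669, 0.296 and 7.36 CPM in WT NO and 0.337, 0.824 and 0.191 CPM in WT RA. In KO it was at 11.3, 8.50 and 8.65 CPM untreated and 7.90, 10.6 and 3.57 CPM after RA. All 6 KO libraries were above the WT libraries of their treatment, and WT NO replicate 3 lay within the range of KO RA, at 15.2 times the mean of its group mates.

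After RA the log2 fold change of Hsd17b11 between KO and WT was 4.03 ± 1.06 (adjusted p = 0.0953), 4.34 ± 1.10 (adjusted p = 0.0348) without KO RA replicate 3 and 4.03 ± 0.58 (adjusted p = 0.0110) without WT NO replicate 3. In untreated cells it was 1.76 ± 0.92 (adjusted p = 0.493) with all libraries and 4.28 ± 0.68 (adjusted p = 0.0213) without WT NO replicate 3. Of 12 edgeR fits that each left out 1 library, 2 called Hsd17b11 after RA and 1 in untreated cells. The largest adjusted p was 0.331 after RA (without WT RA replicate 1) and 0.790 untreated (without KO NO replicate 1). In WT the log2 fold change with RA was −2.62 ± 1.03 (adjusted p = 0.322), and it was −0.10 when WT NO replicate 3 was left out. The phospholipid acyltransferase LPCAT1 remodels the droplet monolayer. Lpcat1 was at 22.4, 24.4 and 22.3 CPM in WT NO and 15.4, 16.5 and 17.6 CPM in KO NO without overlap (−0.48 ± 0.28, adjusted p = 0.557, and −0.47 ± 0.10, adjusted p = 0.0221, without KO RA replicate 3). Its relative Lpcat2 was at 3.77 CPM in KO RA replicate 3 and between 0.671 and 1.26 CPM elsewhere.

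Genes on either side of the pathway were counted in 6 further lists, tested in the same fit with all libraries. The shares of all genes called there were 0.885% higher in KO RA versus WT RA, 3.89% higher and 1.59% lower in KO RA versus KO NO, and 0.788% higher and 0.351% lower in KO NO versus WT NO. Of 13 genes of fatty acid synthesis and desaturation, 1 fell in KO RA versus KO NO: Me1, an enzyme that supplies NADPH, at −1.31 ± 0.32 (adjusted p = 0.0408). Of 9 genes of fatty acid uptake and carriage, Fabp7, a brain fatty acid binding protein that also marks radial glia, rose in KO RA versus WT RA (3.89 ± 0.76, adjusted p = 0.0376, and 2.56 with adjusted p = 0.0124 without KO RA replicate 3). In KO RA versus KO NO, Fabp7 rose again, 257-fold (adjusted p = 0.00157, and a log2 fold change of 6.67 with adjusted p = 0.000162 without KO RA replicate 3). The fatty acid translocase gene Cd36 rose as well (4.41 ± 1.05, adjusted p = 0.0370, and 3.81 with adjusted p = 0.0349 without that library). Fabp7 was at 5.05, 2.04 and 7.12 CPM in WT RA and 40.6, 15.6 and 155 CPM in KO RA. In KO NO, Fabp7 was at 0.146, 0.267 and 0.391 CPM. Cd36 was at 0.0293, 0.296 and 0.0838 CPM in KO NO and 2.12, 1.84 and 5.05 CPM in KO RA. The size of both rises thus rests on few counts in KO NO. None of the 15 genes of mitochondrial fatty acid oxidation, the 3 tested genes of sterol ester metabolism or the 12 tested transcription factors of lipid storage was called in any comparison. At an unadjusted p under 0.05, at most 3 genes of any of these lists, both directions together, passed in a comparison, beside 3.09% to 15.8% of all genes in a direction. DESeq2 called 1 sterol ester gene lower in KO RA versus WT RA and 1 transcription factor higher in KO NO versus WT NO, and limma-voom called at most 6 genes of a list in a comparison.

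Among 19 tested proteins of droplets and droplet-ER contacts, Snx14, a sorting nexin of the contact, rose in KO NO versus WT NO. It went from 6.52, 7.24 and 7.57 CPM to 14.6, 14.1 and 14.1 CPM (1.01 ± 0.18, adjusted p = 0.0272). Rdh10, a retinol dehydrogenase found on droplets, fell in that comparison from 33.0, 40.3 and 14.9 CPM to 8.70, 9.36 and 10.0 CPM (−1.65 ± 0.33, adjusted p = 0.0375). In KO RA versus KO NO it rose, to 28.1, 33.4 and 38.4 CPM (1.83 ± 0.33, adjusted p = 0.0110), and the lipid transfer protein gene Vps13a fell (−1.04 ± 0.25, adjusted p = 0.0362). The medians of these 19 genes were 0.27, 0.22, 0.01, −0.13 and 0.14 in the 5 comparisons in the order given above.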

How the data were processed

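mRNA libraries of NE-4C cells (4 groups of 3) were sequenced as paired ends, and the authors ran nf-core/rnaseq at its defaults (STAR, Salmon) on GRCm39. The authors deposited estimated counts per gene, made from TPM and scaled to each library's own total. They are corrected for gene length: among 3851 genes seen in a single library, the value and the exonic length had a Spearman correlation of −0.685. These expected counts were rounded to whole numbers, so the tests treat scaled values as counts, and a 0 or a floor of 3 counts covers counting error only.

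Tests ran in edgeR 4.0.16 (R 4.3.3). After filterByExpr, libraries were scaled with TMM and fitted with 1 coefficient per group over the 12 libraries (robust quasi-likelihood, 8 residual degrees of freedom). Adjustment ran over all 16502 genes, and a gene was called at an adjusted p under 0.05. The standard error is the log2 fold change divided by the square root of F. Alternatives used DESeq2 1.42.0, limma 3.58.1 and libraries left out. The steps were tested on simulated data with a dispersion (spread between libraries beyond counting error) of 0.05 and no outlying library. The common dispersion of the real libraries was 0.215, so that test does not show how often real changes would be called. Positions are those of GENCODE on GRCm39. All members were accounted for, and values per library were given for called members, for a leading gene of each role and, where none was called, for the 3 with the smallest p. The members and lists were chosen with earlier results of these data known.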

Additional observations from a re-analysis of the deposited data

How the results depend on the processing

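Counts are given as members called higher and lower. With all 12 libraries, edgeR called 0 and 0 in KO NO versus WT NO, KO RA versus WT RA, WT RA versus WT NO and the contrast of RA responses, and 0 and 2 in KO RA versus KO NO. DESeq2 on the same libraries called 1 and 0, 3 and 3, 0 and 1, and 2 and 4 in the 4 comparisons of groups, and limma-voom 6 and 3, 3 and 5, 3 and 4, 2 and 6, and 0 and 2 for the difference. DESeq2 on only the libraries compared, chosen after seeing the data, called 2 and 1, 2 and 1, 0 and 2, and 1 and 4. With KO RA replicate 3 and WT NO replicate 3 both left out, also chosen after seeing the data, edgeR called 6 and 3, 2 and 6, 2 and 3, 2 and 6, and 0 and 2. With DESeq2 size factors in edgeR, 1 member was lower in KO RA versus WT RA. With only the libraries compared, 1 was lower in WT RA versus WT NO and 0 in KO RA versus KO NO, and with at least 10 counts in every library 1 was lower in KO RA versus KO NO. No share of all genes called is given for the edgeR fits with DESeq2 size factors, only the libraries compared or at least 10 counts. The same holds below for the replicate block and for libraries left out singly, except KO RA replicate 3. Counts from those fits are therefore no result about the members. The causes were not tested.

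Leaving out 1 library at a time gave 0 to 2 higher and 0 to 1 lower in either genotype comparison, 0 to 1 lower in WT RA versus WT NO, and 0 to 2 higher and 0 to 4 lower in KO RA versus KO NO. Bscl2 kept its call there in 19 of 21 alternatives and Gpat3 in 17 of 20, and with only the libraries compared their adjusted p was 0.0823 and 0.0671. In KO NO versus WT NO, Plin2 and Agpat3 were each called in 1 of 12 fits without 1 library. Plin3 was called in 2 of 12 in KO RA versus WT RA. No result reversed. The fit with a replicate block called 0 and 2 in KO RA versus KO NO and 0 elsewhere. Libraries of the same number showed no common deviation (correlations −0.167 to 0.0677). With 3 libraries a group, of which 1 stands apart in KO RA and in WT NO, this cannot exclude a pairing by passage.

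Each group has 3 libraries, of which 1 stands apart in KO RA and in WT NO, and Gpat3, G0s2 and Plin5 rest on few counts. The same holds for Fabp7 and Cd36 in KO NO.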

Other observations

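The position of WT NO replicate 3 was measured over all tested genes. Of 126 genes at least 4-fold higher in every KO NO library than in WT NO replicates 1 and 2, WT NO replicate 3 was nearer the KO level in 46 (36.5%). The 3 WT RA libraries were nearer it in 10, 16 and 6 of these genes, and the KO RA libraries in 101, 101 and 96. Over these genes WT NO replicate 3 had a median position of 0.0864 between its group mates and KO NO, near the WT end. Acsl5 and Hsd17b11 meet the same rule and are among these genes. In WT NO replicate 3 they were at 6.49 and 15.2 times the mean of its group mates.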
